A study of Mus musculus with 48 samples.

Results

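Mitotic regulators are the genes whose products take a cell from the end of DNA replication through chromosome segregation to division, here without the kinesin motor list. The 43 genes were named by symbol, in 10 roles. Of these, 41 had a probe set carrying that single symbol; Ccnb1 and Nuf2 were not in the probe table. Each gene was read on the brightest of its probe sets, by the mean over the 48 arrays. Bub1, a checkpoint kinase, had a mean of 3.90 log2 units and fell under the limit of 3.96 below which the dimmest 25% of genes lie. That left 40 members among the 12823 genes tested, of 17097 measured. Cenpe is among the 40 although its product, CENP-E, is itself a kinesin motor.

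Epidermal stem cells (EpSCs) are the basal keratinocytes that renew the outer layer of the skin. They came from the epidermis of wild-type female C57B6/J mice, aged mice of 102 to 116 weeks and young mice of 8 weeks. Cells were taken every 4 h from ZT0 to ZT20 (Zeitgeber time, hours after lights on by convention), from 4 mice per age and time, each on an array of its own. No treatment or engineered allele is named in the labels. All values are log2 intensities of 1-colour Affymetrix arrays, so a difference of 1 is a doubling of signal.

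Entry into mitosis is driven by the kinase Cdk1 bound to A- and B-type cyclins, which the Cdc25 phosphatases switch on. Polo-like and Aurora kinases then build the spindle, the checkpoint kinases hold anaphase until every kinetochore is attached, and the anaphase-promoting complex with Cdc20 starts the destruction of cyclins and securin. Most of these transcripts are made late in the cell cycle, and many of their promoters carry CCAAT boxes, which bind NF-Y, and a CHR element, which binds the DREAM and MuvB complexes. In mouse epidermis, cell division follows the time of day.

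The sequence before the start site is shown for 5 members because many promoters of the group share short letters, with Nusap1, the only member called rhythmic at both ages, as an example without them. RefSeq promoters (GRCm38.p6, 250 bases before to 50 after the start) were given for 36 of the 43 genes. The letters CCAAT stood, on either strand, in 28 of these 36 (77.8%) and in 37.9% of all 27025 promoters. The CHR letters TTTGAA stood in 25 (69.4%) and in 18.1% of all promoters, and both stood in 23 (63.9%) against 7.12%. No match of one motif overlapped a match of the other. In the sequences below, each the 120 bases that end at the start site, capitals mark CCAAT or its complement ATTGG and TTTGAA or its complement TTCAAA.
Cdk1 (chr10:69352913-69353032, minus strand): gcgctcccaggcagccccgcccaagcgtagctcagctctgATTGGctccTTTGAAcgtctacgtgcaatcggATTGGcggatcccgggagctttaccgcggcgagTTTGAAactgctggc
Cdc20 (chr4:118437344-118437463, minus strand): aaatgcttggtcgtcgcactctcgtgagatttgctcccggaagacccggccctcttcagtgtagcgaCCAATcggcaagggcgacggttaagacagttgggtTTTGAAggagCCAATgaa
Ube2c (chr2:164769809-164769928, plus strand): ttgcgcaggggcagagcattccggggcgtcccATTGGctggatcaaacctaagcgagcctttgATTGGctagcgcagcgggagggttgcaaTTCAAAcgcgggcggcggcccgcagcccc
Espl1 (chr15:102296173-102296292, plus strand): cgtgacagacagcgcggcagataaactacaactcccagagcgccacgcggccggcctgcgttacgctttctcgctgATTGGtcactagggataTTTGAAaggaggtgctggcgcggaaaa
Nusap1 (chr2:119618178-119618297, plus strand): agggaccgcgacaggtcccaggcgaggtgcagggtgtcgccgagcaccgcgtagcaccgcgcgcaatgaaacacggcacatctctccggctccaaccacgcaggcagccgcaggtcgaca
Cdk1 shows 2 CCAAT matches and 2 TTTGAA matches in this stretch, Cdc20 and Ube2c show 2 and 1, and Espl1 shows 1 of each. Nusap1 shows none, and none in its whole 300-base window, which also holds for Melk, Birc5, Pttg1, Mad2l1 and Nuf2. Of the members without either motif, Melk, Birc5 and Pttg1 were rhythmic in young cells only. Both motifs were present in 21 of the 29 members with a promoter that were rhythmic in young cells (72.4%) and in 2 of the 4 that were not. For Espl1 the annotated gene start, 102296254, lies inside the printed stretch, before the start site of the promoter used. A match is a stretch of letters, and binding was not measured.

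Facts of the whole series set the frame. Array medians ran from 4.78 to 5.04 log2 units, and the basal keratinocyte markers were among the brightest genes, with Krt5 at 12.69 and Krt14 at 12.39. The suprabasal keratin Krt10 was bright as well (11.71). Of the hair follicle bulge markers Cd34 (3.31) and Lgr5 (3.72) were dim, whereas Krt15 (12.08), which basal keratinocytes also express, Sox9 (9.58), Nfatc1 (9.41) and Postn (8.87) were bright. The fibroblast list was dim, with group means from 3.83 to 3.93 in aged and 3.87 to 3.95 in young cells. Group means of the 4 measured T cell markers ran from 5.49 to 6.19 in aged cells and from 5.22 to 5.59 in young cells, with Thy1 at 9.42 and Cd3e, Cd3g and Cd2 at 4.21, 4.36 and 4.35 over all arrays. Averaged over the day, 3 of these 4 markers were called higher in aged than in young cells (limma), where 9.89% of all genes were. At ZT4 2 of them and at ZT16 1 were called higher, where 3.84% and 1.83% of all genes were. The highest of these means, 6.19 ± 0.47 (SD, n = 4), was that of aged cells at ZT4. Aged ZT4 was also the group with the widest spread of the mitotic genes. The part of these cells in the results was tested only by adding marker scores to the model, given with the other alternatives. In RNA of a cell population, fewer dividing cells and less transcript per cell cannot be told apart.

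The daily course of the group as a whole is given by its score, the mean over the 40 members of each gene's value after centring and division by its SD over the 48 arrays. In aged cells the score was 0.68 ± 0.26 at ZT0, -0.36 ± 1.23 at ZT4, 0.21 ± 0.29 at ZT8, -0.47 ± 0.29 at ZT12, 0.13 ± 0.41 at ZT16 and 0.36 ± 0.30 at ZT20, as means with the SD over 4 mice. In young cells it was 0.76 ± 0.85, -0.06 ± 0.51, -0.72 ± 0.46, -0.61 ± 0.52, -0.78 ± 0.26 and 0.85 ± 0.22 at the same times. Young cells thus had a high stretch at ZT20 and ZT0 and a low stretch from ZT8 to ZT16. The aged means moved up and down between neighbouring times, with a dip at ZT4. The mice of that group scored -1.88, -0.80, 0.38 and 0.87. Without the lowest mouse the aged ZT4 mean was 0.15, close to the 0.21 of ZT8, but its SD was 0.85 against 0.29. A fitted 24 h cosine had an amplitude, from mean to peak, of 0.37 in aged and 0.88 in young cells, with peaks at ZT22.02 and ZT22.91. The score is a description and was not tested.

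The mice behind these means show where the ages part. At ZT8 the 4 aged mice scored -0.03, 0.63, 0.16 and 0.10, and the 4 young mice -0.30, -0.87, -1.31 and -0.41. At ZT16 the aged mice scored -0.34, 0.00, 0.25 and 0.63, and the young mice -0.76, -1.10, -0.79 and -0.46. The ages did not overlap at either time, and aged mice were higher at both. At ZT4 the aged mice ranged from -1.88 to 0.87. The lowest, replicate 1, had the lowest value of its group in 36 of the 40 members, and without it the aged ZT4 mean was 0.15 ± 0.85 (n = 3). At ZT0 the young replicate 3 scored 1.88, the highest of all arrays, and was the highest of its group in 37 members.

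**Figure D1:**
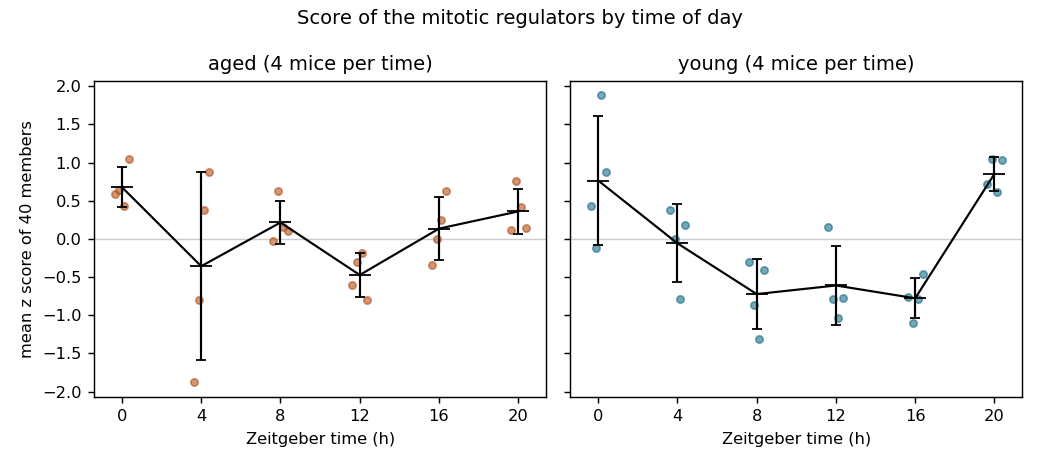
Mean z score of the 40 mitotic regulators (vertical axis, SD units) by Zeitgeber time (horizontal axis, h), aged cells left and young cells right; points are mice, the line joins group means and bars are the SD over 4 mice. The young means fall into a high stretch at ZT20 and ZT0 and a low one from ZT8 to ZT16, and in aged cells the ZT8 and ZT16 means are higher, at 0.21 and 0.13 against -0.72 and -0.78.

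The first comparison asked which members follow a 24 h rhythm at each age. A cosine was fitted within each age for all 12823 genes, and p values were adjusted over all of them (limma F test, Benjamini-Hochberg). In aged cells 1 of 40 members was rhythmic, Nusap1, where 1.36% of all genes tested were. In young cells 32 of 40 were, where 6.27% of all genes were. At an unadjusted p below 0.05 the counts were 22 members in aged and 36 in young cells, with 11.4% and 20.7% of all genes. The adjusted aged count ran from 0 to 5 when 1 array was left out (5 without aged ZT4 replicate 1) and was 5 with array weights. The median amplitude over the 40 members was 0.23 in aged and 0.40 in young cells, and over all genes 0.08 and 0.09.

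The difference of rhythm between the ages passed in none of the 40 members, as in none of the 12823 genes (limma F test of cosine and sine together). The smallest adjusted p among the members was 0.27, that of Ect2, and 8 members had an unadjusted p below 0.05, with 7.66% of all genes. The fitted amplitude was lower in aged cells in 36 of 40 members (90.0%), as in 59.8% of all genes. For 11 members (27.5%) the 95% interval of the amplitude difference, with no adjustment for the number of genes, lay wholly below 0, as for 2.22% of all genes; for none did it lie wholly above 0, as it did for 0.398% of all genes. The contrast of 1 and 32 rhythmic members is thus a contrast of calls at each age, and a difference was not established gene by gene.

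**Figure D2:**
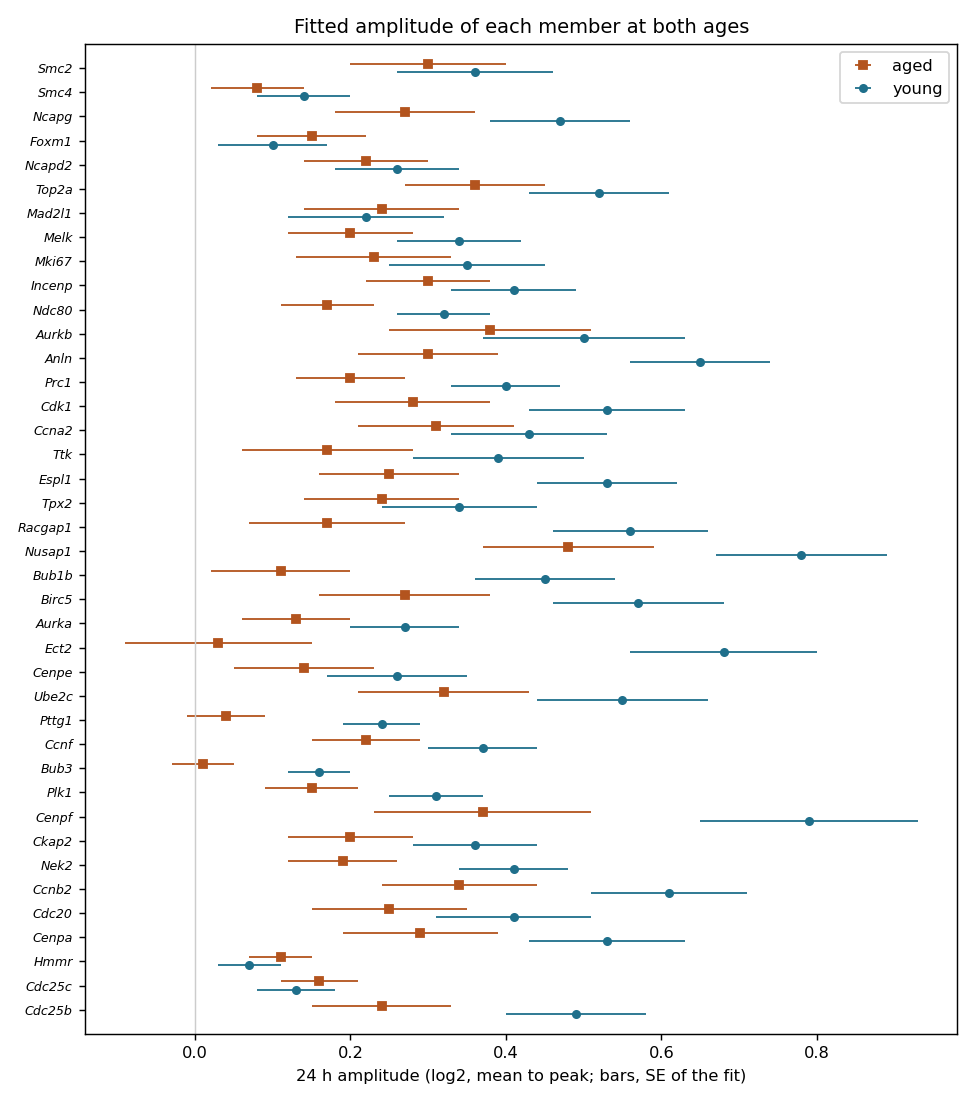
Fitted 24 h amplitude (horizontal axis, log2 units from mean to peak; bars, SE of the fit, 24 arrays per age) of the 40 members (vertical axis, by young peak time) in aged cells (squares) and young cells (circles). The aged point lies left of the young point in 36 members, and Ect2 shows the widest gap, with 0.03 in aged and 0.68 in young cells.

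A second model made no assumption on the shape of the course and gave each of the 12 groups its own mean. By this test 5 members varied over the day in aged cells, where 8.36% of all genes did, and 33 in young cells, where 17.5% did. The aged count depended on the processing: it ran from 1 to 11 when 1 array was left out (1 without aged ZT12 replicate 4, 11 without aged ZT4 replicate 4) and was 12 with centred arrays, 15 with cyclic loess and 16 with array weights. The 5 in aged cells were Top2a (adjusted p = 0.00718), Espl1 (0.0263), Incenp (0.0436), Nusap1 (0.0445) and Cenpf (0.0496), all by limma. At an unadjusted p below 0.05 there were 23 members in aged and 35 in young cells, with 22.7% and 32.4% of all genes. The course differed between the ages in none of the members and in 2.59% of all genes. Here 15 members had an unadjusted p below 0.05, with 15.3% of all genes, and the smallest adjusted p was 0.0514, for Espl1. Ect2 (0.072), Cdc25b (0.0766), Ttk (0.0792) and Racgap1 (0.099) followed. Array weights and 3 other alternative settings gave between 1 and 5 members for this comparison.

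Time by time, the median difference between the ages was largest at ZT8 and ZT16. At ZT8 the aged mean was higher in 39 of 40 members, with a median difference of 0.36, and higher in 58.1% of all genes, with a median of 0.03. At ZT16 it was higher in 37 members with a median difference of 0.37, and in 51.9% of all genes with a median of 0.01. At ZT20 only 3 members were higher in aged cells, with 46.2% of all genes, and the median difference was -0.18, against -0.02 over all genes. The medians at ZT0, ZT4 and ZT12 were -0.04, -0.13 and 0.02. These are counts of signs over correlated genes, since members shared much of their variation within groups (median correlation 0.54 over 780 pairs, as a description).

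The test at single times called few members with the arrays weighted equally. At ZT8 2 members rose in aged relative to young cells, where 1.79% of all genes rose and 2.14% passed in either direction. At ZT16 another 2 rose, where 1.83% of all genes did and 3.3% passed. At ZT4 1 member fell, where 4.37% of all genes did and 8.21% passed. With array weights 7 members passed at ZT8 and 11 at ZT16. When 1 array was left out the count ran from 1 to 6 at ZT8 (6 without aged ZT4 replicate 1), from 1 to 3 at ZT16 and from 0 to 3 at ZT4. None passed at ZT0 (5.19%), ZT12 (1.31%) or ZT20 (1.36%) by limma, where 1, 7 and 5 had an unadjusted p below 0.05, with 18.2%, 13.5% and 11.5% of all genes. At the same looser threshold there were 16 members at ZT8 and 17 at ZT16, with 12.5% and 15.1% of all genes.

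**Figure D3:**
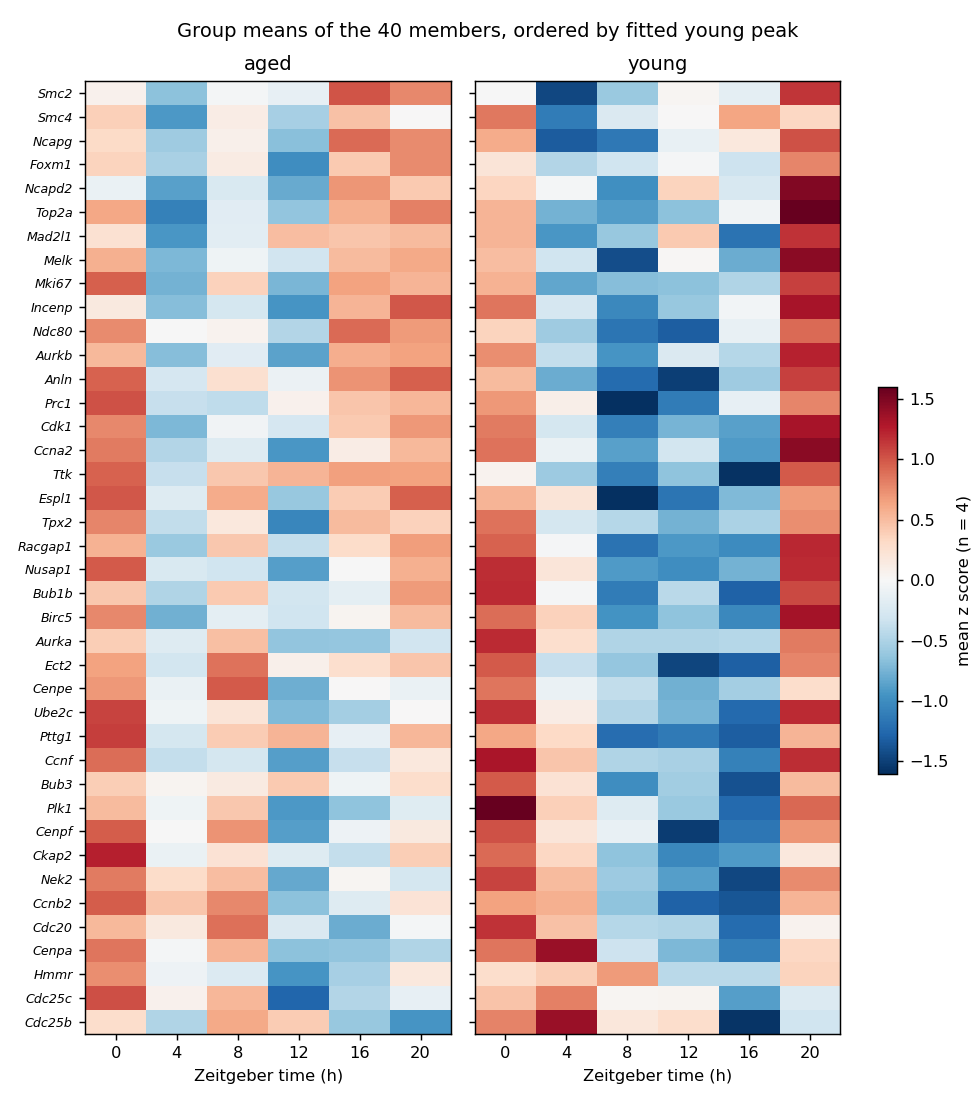
Group means over 4 mice of the 40 members (vertical axis, ordered by fitted young peak) at the 6 Zeitgeber times (horizontal axis, h), aged cells left and young cells right; colour is the mean z score over the 48 arrays. In aged cells the colours are paler and the lowest means lie mostly at ZT12 and ZT4, and in young cells most members are high at ZT20 and ZT0 and low from ZT8 to ZT16.

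The time of the highest group mean was ZT20 or ZT0 for 29 of the 40 members in aged cells and for 36 in young cells. The lowest mean fell at ZT12 for 20 members and at ZT4 for 15 in aged cells. In young cells it fell at ZT16 for 17, at ZT8 for 9 and at ZT12 for 9. The range from the lowest to the highest group mean had a median of 0.64 in aged and 0.98 in young cells.

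Among Cdk1, its cyclins and the Cdc25 phosphatases, 0 of 6 tested members were rhythmic in aged cells (6 at an unadjusted p below 0.05) and 5 of 6 in young cells. Cdk1, the kinase that triggers mitosis, measured 7.78, 8.16, 7.92 and 7.93 in aged cells at ZT20 and 8.16, 8.40, 8.05 and 8.35 in young cells. At ZT16 it measured 7.62, 7.79, 7.84 and 8.04 in aged cells and 7.21, 7.05, 7.38 and 7.29 in young cells. The young mice therefore stepped up between these times with a clear gap, while the aged mice overlapped across them. Its amplitude was 0.28 ± 0.10 in aged (adjusted p = 0.329) and 0.53 ± 0.10 in young cells (0.00136; SE, limma), a peak 1.48 and 2.09 times the trough. Ccnb2, a B-type cyclin, had an amplitude of 0.34 ± 0.10 in aged (0.192) and 0.61 ± 0.10 in young cells (0.000314). Ccna2, the cyclin of S phase and early mitosis, and Ccnf, a cyclin-like F-box protein that marks substrates for destruction, had young amplitudes of 0.43 and 0.37 and aged amplitudes of 0.31 and 0.22. Cdc25c, a phosphatase that activates Cdk1, was not rhythmic in either age (0.226 in aged and 0.229 in young cells).

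Cdc25b, the phosphatase that starts Cdk1 activation, had a course of its own. It was the last member to peak in young cells, at ZT3.99 ± 0.73, and its fitted aged peak, at ZT7.99, was the only one outside the stretch from ZT16 to ZT5. At ZT4 it measured 6.64, 6.89, 7.35 and 7.65 in aged cells and 8.04, 7.86, 7.90 and 7.85 in young cells. All aged mice lay below all young mice. The difference was -0.78 ± 0.20 (adjusted p = 0.00941 by limma, 0.58 times the young level), and without aged ZT4 replicate 1, the mouse in which most members were lowest, it was -0.61 with an adjusted p of 0.0746. Averaged over the day its level did not pass between the ages (-0.10, adjusted p = 0.489).

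The 4 mitotic kinases outside the checkpoint were all rhythmic in young cells and none in aged cells. Plk1, which drives centrosome maturation and mitotic exit, had an amplitude of 0.15 ± 0.06 in aged and 0.31 ± 0.06 in young cells (adjusted p = 0.000794 in young). Nek2, which separates the centrosomes, had 0.19 ± 0.07 and 0.41 ± 0.07 (0.000722 in young). For Melk the values were 0.20 and 0.34. Aurka, the spindle pole kinase, was only just past the threshold in young cells (0.0497) and lost its call in 42 of 58 alternative fits. Ttk, Mki67 and Smc2 lost theirs in 33, 32 and 15.

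The chromosomal passenger complex corrects faulty attachments, with Aurkb as its kinase, Incenp as its scaffold and Birc5 (survivin) as a targeting subunit. All 3 were rhythmic in young cells, and none by the cosine in aged cells. Incenp was the closest in aged cells, with an amplitude of 0.30 ± 0.08 (adjusted p = 0.0844) against 0.41 ± 0.08 in young cells (0.00161). Birc5 had 0.27 ± 0.11 in aged and 0.57 ± 0.11 in young cells (0.00183), and Aurkb 0.38 ± 0.13 and 0.50 ± 0.13 (0.0275).

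Among the spindle checkpoint genes 3 of 4 tested were rhythmic in young cells, and in aged cells none of the 4 reached an unadjusted p below 0.05. Bub1, left out as dim, had an amplitude of 0.17 in aged (unadjusted p = 0.00977) and 0.32 in young cells (2.72e-06, limma). Bub1b, which encodes the checkpoint protein BubR1, had an amplitude of 0.11 ± 0.09 in aged and 0.45 ± 0.09 in young cells, with an interval of the difference from -0.60 to -0.08. Bub3, its binding partner, had 0.01 ± 0.04 and 0.16 ± 0.04 (-0.28 to -0.04). Mad2l1, the checkpoint protein that binds Cdc20, did not follow a 24 h cosine at either age. By the test of group means Mad2l1 did vary over the day in young cells (adjusted p = 0.00409, limma). Its young means were 7.87 at ZT12, 7.26 at ZT16 and 8.16 at ZT20.

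Ttk, the kinase Mps1 that starts the checkpoint signal, differed in level. At ZT16 it measured 6.64, 6.65, 6.89 and 7.19 in aged cells and 5.85, 5.66, 6.03 and 5.50 in young cells. The lowest aged mouse was above the highest young mouse. The difference was 1.08 ± 0.22 (adjusted p = 0.00238, limma), which is 2.12-fold. At ZT20 the ages met, with 6.94, 6.60, 6.78 and 7.01 in aged cells and 7.10, 7.14, 6.92 and 6.84 in young cells. Over the day Ttk averaged 6.75 in aged and 6.29 in young cells (0.46 ± 0.11, adjusted p = 0.00145).

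Of the centromere and kinetochore genes, 3 of 4 were rhythmic in young cells. Cenpf, a large kinetochore protein of late G2, had the largest young amplitude of the group, 0.79 ± 0.14 (adjusted p = 0.000432, peak 2.99 times the trough). In aged cells the amplitude was 0.37 ± 0.14 (0.376, 1.67 times). A second probe set of Cenpf, with a mean of 6.31, had 0.37 in aged and 0.50 in young cells. At ZT12 the chosen probe set of Cenpf measured 6.83, 6.49, 6.83 and 6.62 in aged cells and 6.82, 5.68, 6.07 and 6.55 in young cells. At ZT0 it measured 7.92, 7.52, 8.01 and 8.14 in aged cells and 7.65, 7.82, 8.26 and 7.97 in young cells. Both ages were high at ZT0 and low at ZT12, with no overlap between these times. At ZT8 the aged values of 7.73, 7.96, 7.83 and 7.41 lay near those of ZT0, and the young values were 7.57, 6.98, 7.02 and 7.19. Cenpa, the histone that marks centromeres, had 0.29 ± 0.10 in aged and 0.53 ± 0.10 in young cells (0.00106). A dimmer probe set of Cenpa had 0.05 at both ages. Ndc80, the microtubule-binding arm of the kinetochore, had 0.17 ± 0.06 and 0.32 ± 0.06 (0.00193).

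Among the spindle proteins Nusap1 and Ckap2 were rhythmic in young cells and Tpx2 and Hmmr were not, each on its chosen probe set. Tpx2 had a young amplitude of 0.34 (adjusted p = 0.0815, limma) and passed in 5 of 58 alternative fits. A dimmer probe set of Tpx2 had a young amplitude of 0.45. Nusap1, which bundles microtubules at the spindle, measured 6.72, 6.49, 6.52 and 6.76 in aged cells at ZT0 and 6.25, 6.01, 7.86 and 6.87 in young cells. At ZT12 it measured 5.23, 5.97, 5.44 and 5.36 in aged cells and 6.17, 5.36, 5.14 and 5.04 in young cells. All aged mice at ZT0 were above all aged mice at ZT12, and in young cells 1 mouse of ZT12 overlapped those of ZT0. The amplitude was 0.48 ± 0.11 in aged (adjusted p = 0.0426) and 0.78 ± 0.11 in young cells (3.34e-05), with peaks at ZT22.39 ± 0.91 and ZT23.01 ± 0.56. The aged call was lost in 18 of 58 alternative fits, with adjusted p up to 0.0974, and a second, dimmer probe set of the gene had amplitudes of 0.06 and 0.09. For Hmmr, a spindle-associated receptor, the chosen probe set had a young amplitude of 0.07 whereas 2 others had 0.66 and 0.41, so the gene's place among the members without a rhythm depends on the probe set.

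The genes of anaphase and protein turnover were rhythmic in young cells in 4 of 4 cases. Cdc20, the activator of the anaphase-promoting complex, had an amplitude of 0.25 ± 0.10 in aged and 0.41 ± 0.10 in young cells (adjusted p = 0.0199), and Ube2c, its ubiquitin-conjugating enzyme, 0.32 ± 0.11 and 0.55 ± 0.11 (0.00167). Pttg1, the securin that holds separase inactive, had 0.04 ± 0.05 and 0.24 ± 0.05, and its level rose by 0.15 ± 0.05 in aged cells (adjusted p = 0.0152). Its dimmer probe sets had amplitudes of 0.10 and 0.29 in aged and 0.21 and 0.08 in young cells. Espl1, separase, which cuts cohesin, measured 5.85, 5.88, 5.66 and 5.14 in aged cells at ZT8 and 4.88, 4.65, 4.33 and 4.59 in young cells. The ages did not overlap. The difference was 1.02 ± 0.19 (adjusted p = 0.000767, 2.03-fold). Over the day it averaged 5.53 in aged and 5.21 in young cells (0.32 ± 0.09, adjusted p = 0.00604).

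The cytokinesis genes Anln, Ect2, Racgap1 and Prc1 were the role in which all 4 amplitude intervals lay below 0. Anln, the contractile ring protein anillin, had the smallest p of a young rhythm in the group, with an amplitude of 0.65 ± 0.09 (adjusted p = 6.15e-06) against 0.30 ± 0.09 in aged cells (0.177). At ZT8 it measured 7.61, 7.76, 7.85 and 7.20 in aged cells and 7.08, 6.72, 6.45 and 7.09 in young cells, a difference of 0.77 ± 0.20 (adjusted p = 0.0306). All aged mice were higher. Leaving out any of 3 of the aged or 2 of the young mice of that time put the adjusted p between 0.0782 and 0.175.

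Ect2 activates the small GTPase RhoA at the division plane. Its amplitude was 0.03 ± 0.12 in aged (adjusted p = 0.995) and 0.68 ± 0.12 in young cells (0.00043), and the interval of the difference ran from -0.99 to -0.32. In aged cells the group means were 5.22 ± 0.23 at ZT0, 4.70 ± 0.76 at ZT4, 5.35 ± 0.42 at ZT8, 4.91 ± 0.15 at ZT12, 5.02 ± 0.32 at ZT16 and 5.11 ± 0.31 at ZT20, again with the SD over 4 mice. In young cells they were 5.41 ± 0.35, 4.66 ± 0.31, 4.52 ± 0.35, 4.05 ± 0.47, 4.14 ± 0.37 and 5.31 ± 0.24. At ZT8, ZT12 and ZT16 the aged means were above the young means, and at ZT4 the 2 means were close. At ZT16 the aged mice measured 4.66, 4.84, 5.22 and 5.35 and the young mice 4.03, 3.93, 4.69 and 3.90, with 1 young mouse above the lowest aged mouse. The difference was 0.88 ± 0.26 (adjusted p = 0.0462, limma), a call that 15 of the 57 alternatives that tested Ect2 lost. Racgap1, the partner of Ect2 at the midzone, had 0.17 ± 0.10 in aged and 0.56 ± 0.10 in young cells (-0.66 to -0.11), and Prc1, which bundles midzone microtubules, 0.20 ± 0.07 and 0.40 ± 0.07 (-0.40 to -0.01).

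**Figure D4:**
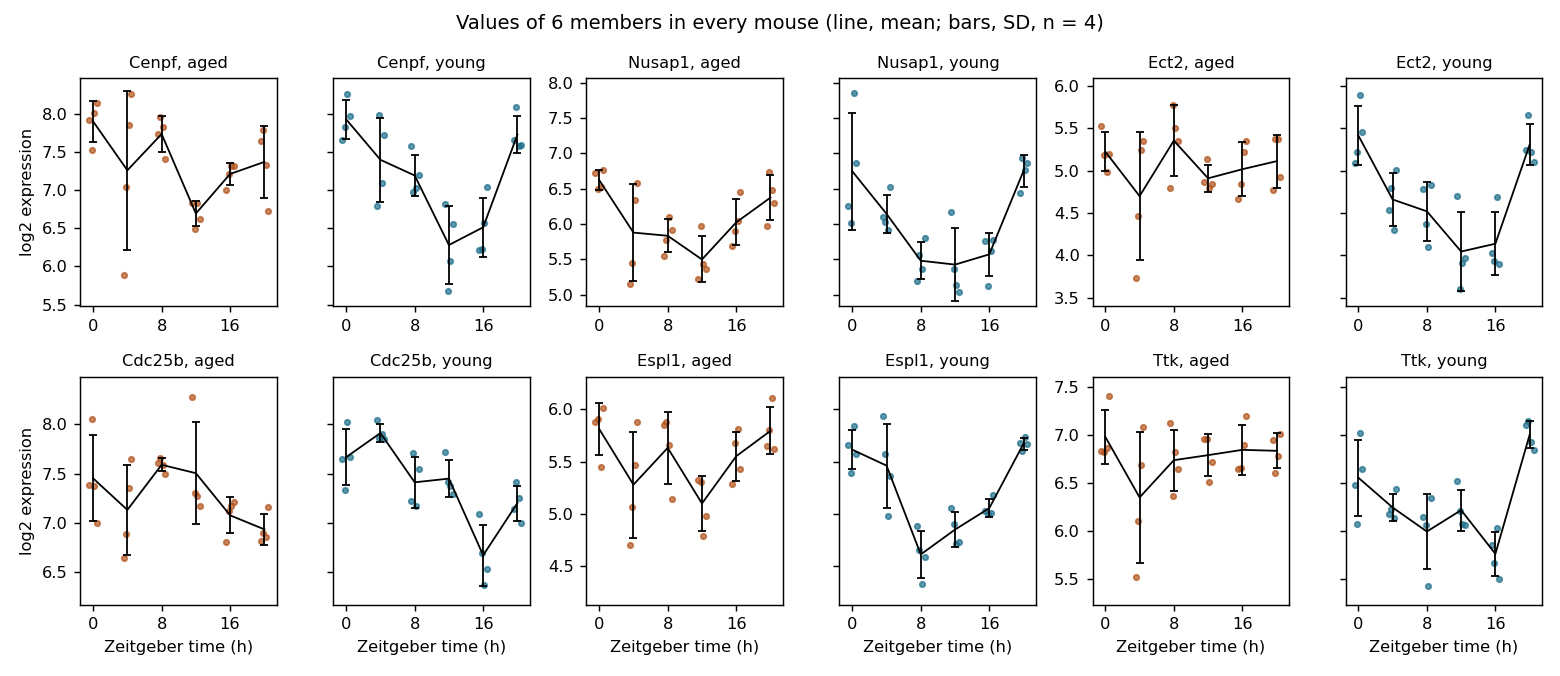
Log2 intensity by Zeitgeber time (h) of 6 members in aged (left) and young (right) cells; points are mice, lines join the group means and bars are the SD over 4 mice. Espl1 at ZT8 and Ttk at ZT16 show aged mice above all young mice, and Cdc25b at ZT4 shows aged mice below all young mice.

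Of the condensin and chromosome structure genes, 4 of 6 were rhythmic in young cells. Top2a, which untangles DNA, had the smallest p of a daily course in aged cells. It measured 7.38, 7.77, 7.53 and 7.52 in aged cells at ZT20 and 7.80, 8.34, 7.64 and 8.02 in young cells, and at ZT12 6.70, 7.30, 6.94 and 6.75 in aged cells and 7.35, 6.77, 6.73 and 6.79 in young cells. At both ages all mice of ZT20 were above all mice of ZT12. Its amplitude was 0.36 ± 0.09 in aged (adjusted p = 0.0562) and 0.52 ± 0.09 in young cells (0.000319). Its dimmer probe sets had 0.10 and 0.03 in aged and 0.05 and 0.08 in young cells. The condensin subunits Ncapg and Smc2 had 0.27 and 0.30 in aged and 0.47 and 0.36 in young cells, and Mki67, the proliferation antigen, 0.23 and 0.35. Foxm1, the transcription factor of many G2 and mitotic genes, was not rhythmic at either age on its chosen probe set (0.15 in aged and 0.10 in young cells), whereas another of its probe sets had a young amplitude of 0.37.

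The peaks of the 32 members rhythmic in young cells were set in order as a description. Of these, 29 peaked between ZT20 and ZT2 (90.6%), as did 333 of the 804 genes rhythmic in young cells (41.4%). The earliest were the chromosome structure genes Smc2 at ZT18.26 ± 1.03, Ncapg at ZT19.21 ± 0.76 and Top2a at ZT20.46 ± 0.64. Mki67 of the same role peaked at ZT21.09 ± 1.05, next to the kinase Melk at ZT21.07 ± 0.92. Cdk1 (ZT22.18 ± 0.72) and Ccna2 (ZT22.29 ± 0.87) lay in the middle and Plk1 (ZT0.47 ± 0.69), Ccnb2 (ZT0.72 ± 0.64), Cdc20 (ZT1.36 ± 0.93) and Cenpa (ZT1.77 ± 0.70) late. Most neighbours in this order lay closer together than their SE, whereas Cdc25b (ZT3.99 ± 0.73) stood apart from Cenpa before it. No difference between peaks was tested. In aged cells the chromosome structure score also peaked before the score of the anaphase genes, at ZT18.97 and ZT0.88, and in young cells at ZT19.70 and ZT23.82. Over the 22 members with an unadjusted p below 0.05 in aged cells, the aged peak minus the young peak had a median of -0.61 h.

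**Figure D5:**
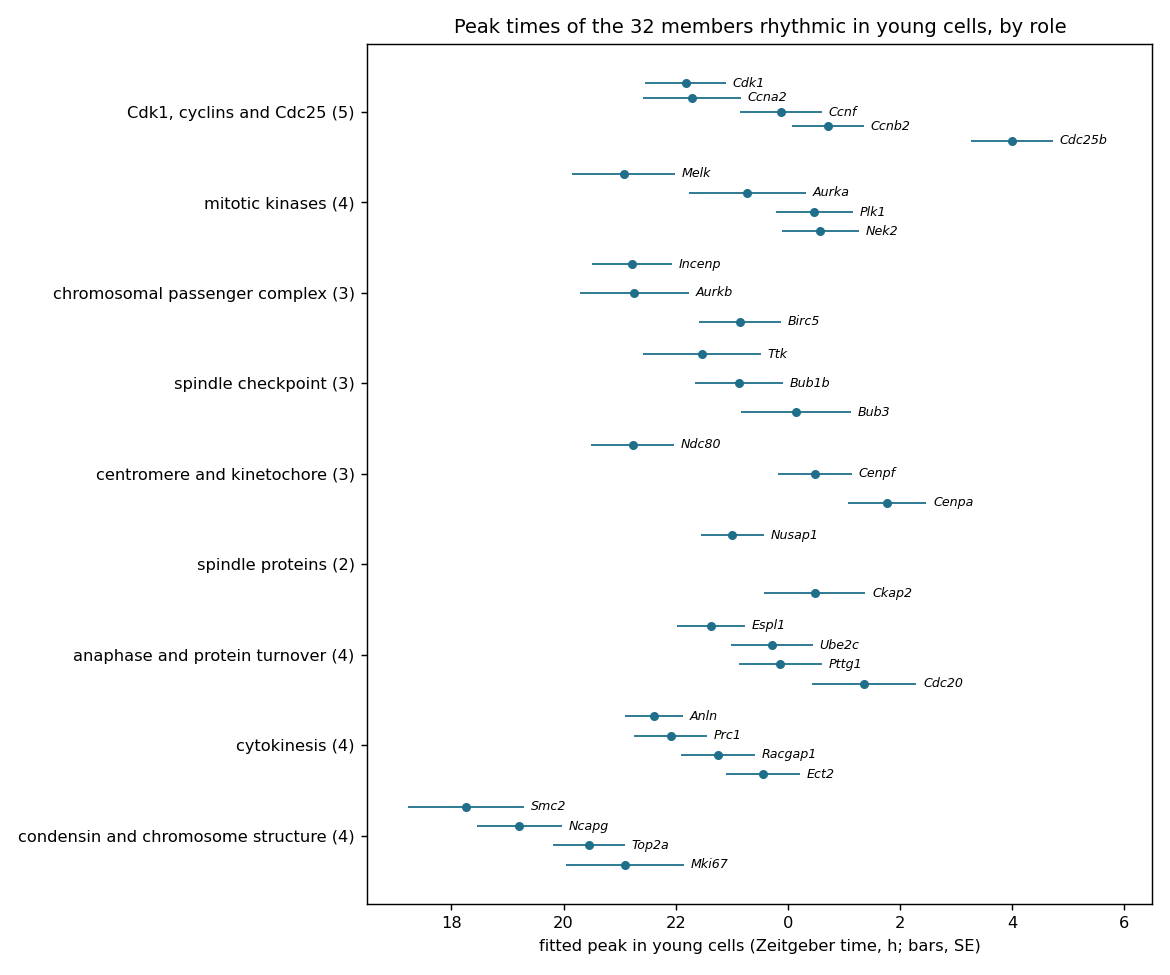
Fitted peak time in young cells (horizontal axis, Zeitgeber time in h; bars, SE) of the 32 members rhythmic in young cells, grouped by role with the number in parentheses. Smc2 at ZT18.26 is the earliest and Cdc25b at ZT3.99 the latest, and 29 of the 32 lie between ZT20 and ZT2.

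Averaged over the day, 6 members passed the test of level between the ages, where 18.6% of all genes did, and all 6 rose in aged cells, where 9.89% of all genes rose. Beside Ttk, Espl1 and Pttg1 these were Anln at 7.69 in aged and 7.26 in young cells (0.43 ± 0.09, adjusted p = 0.000288), Ect2 at 5.05 and 4.68 (0.37 ± 0.12, 0.0196) and Ndc80 at 5.89 and 5.70 (0.19 ± 0.06, 0.0254; limma). The 6 members are 15.0% of the 40, a share near the background of all genes. The level was higher in aged cells in 28 of 40 members, with a median difference of 0.06, and in 49.3% of all genes. With cell type marker scores in the model the levels of Ect2 and Ndc80 no longer passed (adjusted p = 0.0871 and 0.187), and Pttg1 no longer passed with the mean of all its probe sets (0.276).

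Other cell cycle lists were read beside the members. Of 8 mitotic kinesins 0 were rhythmic in aged and 4 in young cells by limma (1 and 8 at an unadjusted p below 0.05), with Kif11, the motor that pushes spindle poles apart, at amplitudes of 0.44 and 0.71. Of 32 other kinetochore and centromere genes 4 were rhythmic in aged and 9 in young cells. For 22 other spindle, centrosome and cytokinesis genes the counts were 1 and 11. Over all genes 1.36% were rhythmic in aged and 6.27% in young cells, and 11.4% and 20.7% had an unadjusted p below 0.05. The other kinetochore list had a median amplitude of 0.18 in aged and 0.17 in young cells, with 56.2% of its genes lower in aged cells. The other spindle list had 0.12 and 0.20 with 77.3% lower, and the kinesins 0.12 and 0.27 with all 8 lower. Over all genes 59.8% were lower. Pbk, a mitotic kinase of the entry list, was rhythmic at both ages (0.53 in aged and 0.71 in young cells). Wee1, the kinase that restrains Cdk1, had another course between the ages (adjusted p = 0.0019, limma) and a level 0.36 higher in aged cells. In the entry list as a whole, 1 of 10 tested genes was rhythmic in aged and 3 in young cells. In level 4 of the 10 passed, 1 higher and 3 lower in aged cells, where 9.89% of all genes rose and 8.73% fell.

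The 28 tested S phase and replication genes gave other counts. Of these, 18 followed a 24 h cosine in aged cells and 13 in young cells, where 1.36% and 6.27% of all genes did. The median amplitude was 0.41 in aged and 0.29 in young cells. Only 4 had a lower amplitude in aged cells, where 36 of the 40 mitotic members did. The test of group means, which assumes no shape, called 23 in aged and 24 in young cells, with 8.36% and 17.5% of all genes. Their score at ZT12, ZT16 and ZT20 was 0.95, 0.67 and 0.37 in aged and 1.00, -0.49 and 0.32 in young cells. The young score thus fell and rose again, which 1 cosine cannot follow. The fitted peak of the score was ZT13.39 in aged and ZT13.36 in young cells, well before that of the mitotic members. Pole, a DNA polymerase, had amplitudes of 0.46 and 0.35 and Cdt1, which licenses origins, 0.46 and 0.30. The difference of rhythm passed for none of the 28 by limma, and 1 had an unadjusted p below 0.05. At ZT16, 9 of the 28 rose in aged cells, where 1.83% of all genes did, and the median difference over the list was 0.41. At ZT8 the median was 0.28 and none passed, with 9 of the list and 12.5% of all genes at an unadjusted p below 0.05. Of 12 core clock genes, 10 were rhythmic in aged and 9 in young cells, and of 12 subunits of the anaphase-promoting complex none at either age (0 in aged and 1 in young cells at an unadjusted p below 0.05).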

How the data were processed

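RNA was measured on 48 one-colour Affymetrix arrays. The authors deposited log2 probe set values made with RMA, per the submitters' processing notes. Not given in the sources used here are the RMA version and whether both ages were normalised as 1 set. Values were used as deposited. Of 45141 probe sets, 28898 carry 1 gene symbol, and the dimmest 25% of genes were left out. limma 3.58.1 in R 4.3.3 (lmFit, eBayes) fitted a mean with a 24 h cosine and sine per age, and separately a mean for each of the 12 groups; p-values received the Benjamini-Hochberg adjustment across the 12823 genes and were called below 0.05. Intervals are 95% and errors of fitted values are SE. Per role, up to 4 members with the smallest young p were named, with every member called between ages or in aged cells. In other lists at most 3 genes were named. The fits were tested on simulated data. The members and lists were chosen with earlier results of these data known. Residuals correlated at -0.00074 on average between mice sharing a replicate number and at 0.00091 between others, so the numbers did not pair the mice. In the model of group means, p-values set an effect against the spread between mice of a group. In the cosine model that spread also holds departures of the group means from a 24 h cosine. The number of arrays limits the precision. Alternatives changed the dim filter, probe set choice, normalisation, weights, eBayes settings, replicate block and cell mixture, or left out arrays.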

Additional observations from a re-analysis of the deposited data

Results flagged for a closer look

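In 7 of 108 groups of 4 mice, 1 mouse of a key member stood apart from the other 3, by the ratio of its gap to the group's range; chance gives about 1 such group in 20. In aged cells these were Cdc25b at ZT12, where replicate 1 measured 8.28 log2 units and the others 7.17 to 7.30, and Ttk at ZT0, where replicate 4 measured 7.40 and the others 6.82 to 6.86. In young cells Cenpf at ZT20 had replicate 2 at 8.08 (others 7.58 to 7.65), Ccnb2 at ZT20 replicate 4 at 6.52 (5.86 to 5.94) and Ect2 at ZT16 replicate 3 at 4.69 (3.90 to 4.03). Espl1 at ZT16 had replicate 4 at 5.18 (others up to 5.03) and Anln at ZT0 replicate 3 at 8.25 (7.52 to 7.63). The mouse behind the Ect2 value is the one that overlapped the aged mice at that time. Young ZT0 replicate 3, behind the Anln value, was the highest of its group in 37 of 40 members.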

How the results depend on the processing

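Each count was recomputed under 58 alternatives, 48 of which leave out 1 array. The rhythm difference stayed at 0 members, as did ZT0 and ZT20, in all 58. Young rhythm (32 members) ran from 25 to 33 without 1 array and from 27 to 34 otherwise, the young course (33) from 28 to 34 and 29 to 35, and level (6) from 6 to 7 and 4 to 7. With the replicate block, young rhythm gave 29 members, aged rhythm 1 and aged course 3; mice with the same number showed no pairing. The score amplitude ran from 0.32 to 0.48 in aged and 0.79 to 0.97 in young cells. Aged rhythm (1 member) gave 0 with no dim filter or with cell mixture covariates, 2 without the lower 50% of genes, 3 with median centring or cyclic loess, 5 with array weights and 4 without the 4 arrays of lowest weight. It ran from 0 to 5 without 1 array: 5 without aged ZT4 replicate 1, 3 without young ZT0 replicate 2, and 0 without any of 13 aged arrays. Aged course (5) gave 2 with no dim filter, 12 with centring, 15 with loess, 16 with weights, 3 with cell mixture and 9 without the 4 arrays, and ran from 1 (without aged ZT12 replicate 4) to 11 (without aged ZT4 replicate 4). Course difference (0) gave 1 with the mean of all probe sets, 5 with weights, 1 with eBayes trend and robust and 1 without the 4 arrays, and ran from 0 to 4 (without aged ZT4 replicate 4). ZT4 (1) gave 2 with cell mixture and ran from 0 (without aged ZT4 replicate 1) to 3 (without replicate 4). ZT8 (2) gave 1 without the lower 50%, with centring, loess or cell mixture and 7 with weights, and ran from 1 to 6 (without aged ZT4 replicate 1). ZT12 (0) gave 1 with the mean of probe sets, weights or without the 4 arrays, and ran from 0 to 2. ZT16 (2) gave 1 with no dim filter, without the lower 50%, with trend and robust or cell mixture, 11 with weights and 4 without the 4 arrays, and ran from 1 to 3. The causes were not tested. Among 3005 recomputed values of named genes, 2810 kept direction and side of the threshold, 185 lost the call, 10 gained it and 0 reversed.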
